A study of Mus musculus with 5 samples.

Results

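The genes described here are 35 genes of the endoplasmic reticulum: its folding chaperones, its disulfide isomerases, the sensors of unfolded protein, the degradation machinery and the vesicle genes of the first secretory step. They were listed by symbol, and every probe set annotated to 1 of these symbols alone was read. Of the 35 genes, 34 had such a probe set and all 34 passed the intensity filter, out of 11075 measured genes among 18193 genes with a probe set of their own. Fkbp10 had no probe set annotated to it alone and was not analysed here. Ero1l was found under its current symbol, Ero1a. The cells were primary rib chondrocytes of mouse embryos of the FVB strain, taken at embryonic day 18.5, with no genetic change or drug named in the labels. They were released by collagenase and trypsin and grown on gelatin-coated dishes in serum-containing medium. Ascorbic acid, a cofactor of collagen hydroxylation, and beta-glycerophosphate, a phosphate source for mineral, were present on all days. There was 1 array for each of days 2, 6, 9, 12 and 15, and time in culture is the only variable the labels name. The labels do not say how many embryos were pooled or whether the 5 arrays came from a common isolate.

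Secreted and membrane proteins are folded in the endoplasmic reticulum, where chaperones hold unfinished chains and isomerases form their disulfide bonds. When unfolded protein builds up, the sensors IRE1 (Ern1), PERK (Eif2ak3) and ATF6 start the unfolded protein response, which raises the transcription of chaperone and degradation genes and lowers translation. Cartilage cells secrete large amounts of collagen and proteoglycan and depend on this machinery, and loss of several of its genes disturbs the growing skeleton.

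All values are MAS5 probe-set intensities on a linear scale, scaled by the authors to a common array mean of 500. A gene is represented by its brightest probe set, and "past 2-fold" means a ratio of at least 2 between the floored intensities of the days compared. With 1 array a day there is no replicate check of any difference between days and no p-value for it. As a guide, the disagreement of probe sets put an SD of 0.60 on the log2 difference that any single probe set gave for day 15 minus day 2. It was taken from 2014 genes with 2 measured probe sets and holds no spread between dishes or arrays. Median intensity ranged from 106 to 118 over the 5 arrays, 58.8% to 61.9% of probe sets reached the floor of 73.0, and Actb control signal at the 3' end was 1.17 to 1.27 times that at the 5' end. The arrays are bulk samples, so fewer cells of a type and less RNA per cell cannot be told apart.

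Most of these genes differed little with time, while a small group differed by several fold. Day 15 stood past 2-fold above day 2 for Pdia4, Sdf2l1, Creb3l1 and Fkbp14, and past 2-fold below it for Ern1 and Creb3l2. Thus 4 of 34 were higher against 16.2% of all measured genes, 2 of 34 were lower against 11.6%, and 28 lay within 2-fold. The median log2 difference was 0.13 over the 34 genes and 0.00 over all measured genes. Counting any later day against day 2, 8 of 34 (23.5%) were past 2-fold, with Ero1l and Atf6 added to the 6 above. The share was 41.7% over all measured genes and 34.3% over the 7806 genes at or above the 70th percentile of intensity, a level that all 34 reached. All 5 values lay within 2-fold of each other in 25 of the 34 genes (73.5%), against 53.3% of all measured genes and 63.1% of the brighter ones.

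**Figure D1:**
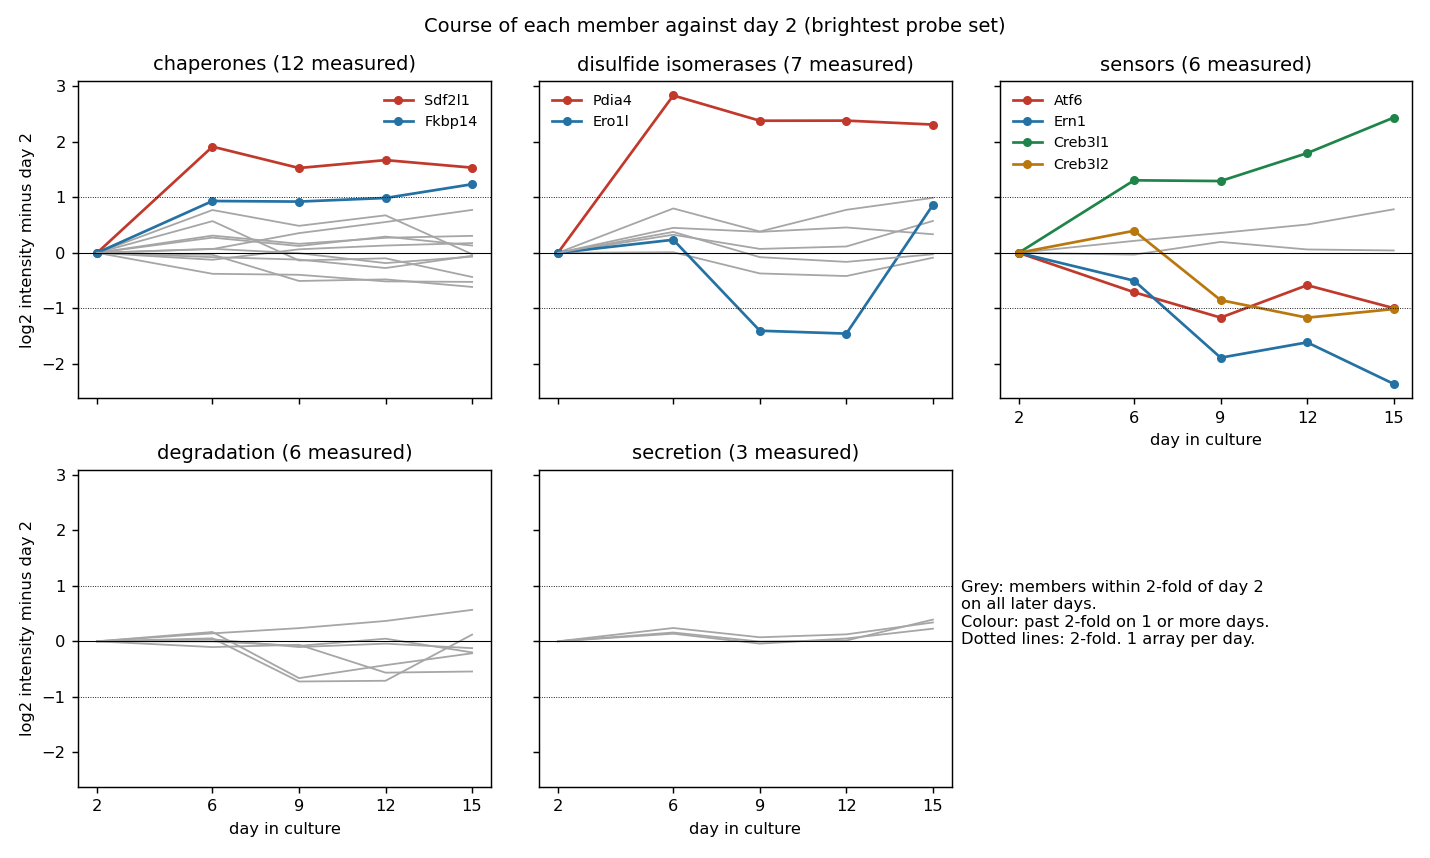
Log2 intensity minus that of day 2 (y axis) against day in culture (x axis) for the brightest probe set of each of the 34 measured genes, 1 panel per role, 1 array per day. Coloured lines are the 8 genes past 2-fold of day 2 on any later day and grey lines the 26 others. Degradation and secretion have no coloured line.

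Among the 12 measured chaperones, 2 were past 2-fold higher at day 15 than at day 2, none was past 2-fold lower, and the median log2 difference was 0.05. Hspa5 encodes BiP, the main Hsp70 of the endoplasmic reticulum and the classic reporter of unfolded protein. Its intensity was 29611 on day 2, 22800 on day 6, 22519 on day 9, 20739 on day 12 and 20612 on day 15. It was thus highest on day 2 and 1.44-fold lower on day 15, a log2 difference of -0.52. That is smaller than the SD of 0.60 between probe sets, which holds no spread between arrays. A second probe set, at 17746 on day 2, gave -0.66, and the remaining one, far dimmer at 1276 on day 2, gave 0.03.

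Ppib, a peptidyl-prolyl isomerase that also takes part in collagen prolyl hydroxylation, ran the other way. It read 18798, 19700, 24033, 27605 and 32097 on days 2, 6, 9, 12 and 15. Each value was above the one before, and day 15 was 1.71-fold above day 2, with a second probe set at 1.82-fold. Fkbp14, a second isomerase of the endoplasmic reticulum with a role in collagen folding, read 1718, 3278, 3255, 3404 and 4041. Most of its difference lay between day 2 and day 6, and day 15 was 2.35-fold above day 2. Its other probe set lay below the filter and at the floor on 4 of the 5 days, and with all probe sets averaged the log2 difference was 0.71 in place of 1.23.

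Sdf2l1, a partner of the BiP cochaperones, read 298, 1120, 858, 947 and 862 on the 5 days. All 4 later days stood well above day 2, with the highest value on day 6, 3.76-fold above day 2, and day 15 at 2.89-fold. It has 1 probe set. Manf, a secreted and luminal stress protein, read 12592, 12289, 8866, 9043 and 8232, so that days 2 and 6 stood above the later 3, and day 15 was 1.53-fold below day 2.

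The other chaperones lay within 2-fold of day 2 on every later day. The log2 difference at day 15 was 0.18 for Hsp90b1 (GRP94), 0.31 for the lectin chaperone Calr, -0.07 for its membrane-bound relative Canx and -0.05 for the Hsp70-like Hyou1. Among the BiP cochaperones, Dnajb9 gave 0.13, Dnajc3 gave -0.02 and Dnajb11 gave -0.43. Dnajb11 and Dnajc3 were both highest on day 6, at 2296 and 2386, and lowest on day 15, at 1144 and 1376. For Dnajb11 that was a 2.01-fold span, the only one among these 7 genes to reach 2-fold.

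The 7 disulfide isomerases and oxidases gave the highest median of the 5 role groups, 0.57 at day 15 against day 2. Of the 7, 1 was past 2-fold higher (16.2% of all measured genes were) and none past 2-fold lower (11.6% were). All 7 read higher on day 6 than on day 2 (51.8% of all measured genes did), or 6 with all probe sets averaged. All 7 read lower on day 9 than on day 6 (50.8% of all measured genes did), or 6 with each array centred on its median. Both counts rest on the 1 array of day 6. Pdia4 (ERp72), a protein disulfide isomerase, had the largest step of the 34 genes between day 2 and any later day. It read 698 on day 2, then 4967, 3625, 3629 and 3455. Day 2 stood alone, 7.12-fold below day 6 and 4.95-fold below day 15, and the 4 later days lay within 1.44-fold of each other. Its second probe set lay below the filter and at the floor on 3 of the 5 days, and with both averaged the log2 difference at day 15 was 1.48 in place of 2.31.

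Pdia3 (ERp57), the isomerase that works with calreticulin and calnexin, read 15068, 20578, 19576, 20675 and 18998. All later days lay above day 2, by at most 1.37-fold. P4hb, a disulfide isomerase that is also the beta subunit of collagen prolyl 4-hydroxylase, read 13388, 16775, 14060, 14492 and 19924. It was highest on day 15, 1.49-fold above day 2. Pdia5 lay just under the threshold at day 15, 1.99-fold above day 2 (log2 difference 0.99, or 1.13 with each array centred on its median), Pdia6 gave a log2 difference of -0.09 and Creld2 gave -0.03.

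Ero1l, the oxidase that passes electrons from the isomerases to oxygen, had a deep low on days 9 and 12. It read 2483 on day 2 and 2923 on day 6, then 940 on day 9 and 907 on day 12, and 4511 on day 15. The low pair of middle days stood 3.11-fold (day 9 against day 6) and 4.98-fold (day 12 against day 15) below their neighbours. Its 2 other probe sets gave the same shape: 1 read 1617, 2387, 670, 655 and 3045, and the other read 1091, 1464, 465, 524 and 2143. In these, day 9 was 3.56-fold and 3.15-fold below day 6, and day 15 was 4.65-fold and 4.09-fold above day 12. At day 15 against day 2 the difference was 1.82-fold, within the threshold.

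**Figure D2:**
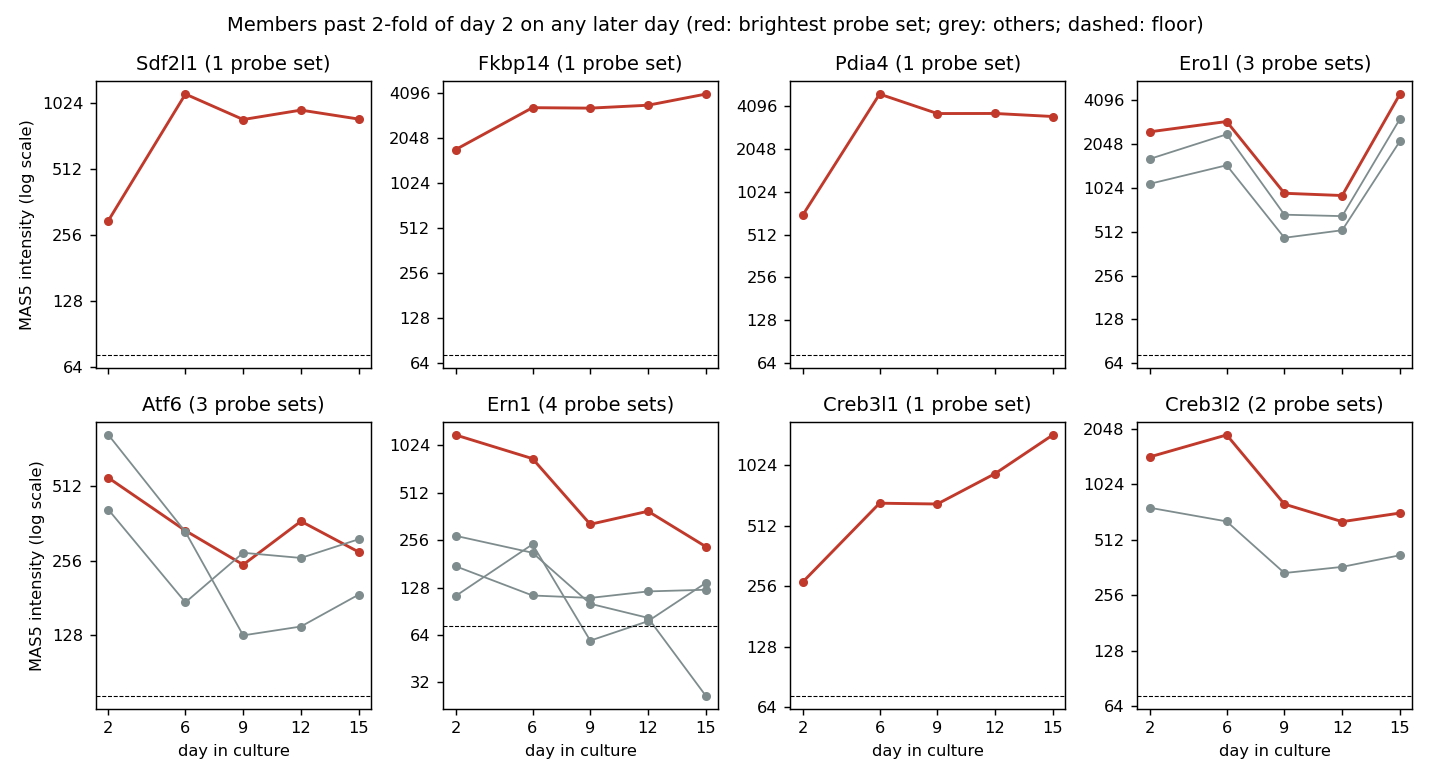
MAS5 intensity (y axis, log scale) against day in culture (x axis) for the 8 genes past 2-fold of day 2 on any later day, 1 array per day. Red lines are the brightest probe set, grey lines the other probe sets that passed the filter, and the dashed line is the floor of 73.0. The 3 probe sets of Ero1l share a low on days 9 and 12, while those of Ern1 and Atf6 part.

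The 6 sensors and membrane-bound or downstream transcription factors went furthest apart. Their log2 differences at day 15 against day 2 ran from -2.36 to 2.43, with a median of -0.48. Of the 6, 1 was past 2-fold higher, against 16.2% of all measured genes, and 2 were past 2-fold lower, against 11.6%. Creb3l1 (OASIS), a membrane-bound factor known from bone to act on type I collagen, read 268, 662, 656, 929 and 1447. It was lowest on day 2 and highest on day 15, 5.39-fold apart, a log2 difference of 2.43. Its relative Creb3l2 (BBF2H7), known from cartilage to act on the Sec23a transport gene, read 1441, 1897, 799, 642 and 715. Days 2 and 6 stood above the 3 later days, with a 2.37-fold step down from day 6 to day 9 and day 15 at 2.01-fold below day 2.

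A second probe set of Creb3l2 read 764, 644, 338, 365 and 422, which left day 15 at 1.81-fold below day 2. The log2 difference of Creb3l2 was within 2-fold under 3 alternatives, at -0.93 with all probe sets averaged, -0.87 with each array centred on its median and -0.94 with a pseudocount in place of the floor. The log2 difference of Creb3l1 exceeded that of Creb3l2 by 3.44, a distance read within the same 2 arrays, which a single scaling factor for each array does not move. Creb3l1 has 1 probe set.

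Ern1 encodes IRE1, the kinase and nuclease that splices Xbp1 mRNA. Its brightest probe set read 1194, 844, 323, 391 and 233, highest on day 2 and 5.14-fold lower on day 15. Its 4 measured probe sets did not run together. The second read 273, 213, 101, 82.2 and 26.3, below the floor on day 15 and thus at least 3.75-fold lower. The third read 175, 114, 110, 121 and 124, and the fourth 113, 241, 58.9, 78.3 and 137, with log2 differences at day 15 of -0.50 and 0.29. Of the 34 genes, only Ern1 had a measured probe set past 2-fold at day 15 against day 2 and another on the other side of 0. Its remaining probe set lay below the filter and at the floor on all 5 days. With all its probe sets averaged, this floored probe set included, the log2 difference was -0.90 in place of -2.36.

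Atf6, the sensor that is cut in the Golgi to release a transcription factor, read 554, 339, 247, 370 and 278. It was 2.24-fold below day 2 on day 9 and 1.99-fold below on day 15, just inside the threshold. A second probe set read 826, 335, 128, 139 and 187, and the remaining one 412, 174, 276, 263 and 313. All 3 were highest on day 2, with log2 differences at day 15 between -2.15 and -0.39. Quantile normalization put Atf6 past 2-fold, at -1.04, as did averaging its probe sets, at -1.18.

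Xbp1, the transcription factor whose mRNA IRE1 splices, read 6834, 7934, 8754, 9728 and 11762. Every value was above the one before, and day 15 was 1.72-fold above day 2, with all 4 probe sets higher by log2 differences between 0.43 and 0.78. These probe sets were read as total Xbp1 mRNA, and spliced and unspliced forms were not told apart. Eif2ak3 (PERK), the kinase that slows translation, read 999, 977, 1145, 1042 and 1029, a span of 1.17-fold, the second narrowest of the 34 genes after Derl1.

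All 6 degradation genes lay within 2-fold of day 2 on every later day. Over all measured genes 41.7% were past 2-fold on any later day, and 34.3% of the brighter ones. The median log2 difference of the 6 at day 15 was -0.16. Derl1, a channel component through which misfolded proteins leave the endoplasmic reticulum, read 5892, 6042, 5485, 5723 and 5411. Its relative Derl2 read 2738, 2736, 2587, 2829 and 2384. Both held within 1.19-fold over the 5 days. The log2 difference at day 15 was 0.57 for the adaptor Sel1l and -0.54 for the ubiquitin ligase Syvn1 (HRD1), its partner in the same complex. The other Sel1l probe sets ran from 0.02 to 0.41, and the second one of Syvn1 gave -0.73.

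Herpud1, a membrane protein of the same complex, and Edem1, which marks misfolded glycoproteins by mannose trimming, shared a low on the middle days. Herpud1 read 2863, 3216, 1809, 2127 and 2466, and Edem1 read 1444, 1499, 875, 883 and 1570. Day 9 was 1.78-fold below day 6 for Herpud1 and 1.71-fold below for Edem1, both under the threshold. The second probe set of each was lower on day 9 as well, by 1.67-fold and 1.40-fold.

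The 3 secretion genes were nearly flat and slightly higher at the end, with a median log2 difference of 0.34 at day 15 against day 2. None was past 2-fold, against 16.2% of all measured genes higher and 11.6% lower. Sec61b, a subunit of the translocon through which new chains enter, read 9885, 10870, 9607, 10240 and 11570. Sec23a, a coat protein of the vesicles that leave for the Golgi, read 5955, 6646, 5933, 6015 and 7809. Sec24d, its cargo-binding partner, ran between 3624 on day 2 and 4586 on day 15. All 3 were highest on day 15, by at most 1.31-fold over day 2.

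The step from day 2 to day 6 was mostly upward. Pdia4, Sdf2l1 and Creb3l1 (2.47-fold) were past 2-fold higher, 3 of 34 against 10.2% of all measured genes, and none was past 2-fold lower against 5.70%. At any size, 25 of 34 (73.5%) read higher on day 6, against 51.8% of all measured genes, and the medians were 0.16 and 0.03. From day 6 to day 9 the direction was the other one, in a step that shares the single day 6 array with the first. Ero1l, Ern1 (2.61-fold) and Creb3l2 were past 2-fold lower, 3 of 34 against 4.06%, and none was past 2-fold higher against 5.89%. At any size, 28 of 34 (82.4%) read lower on day 9, against 50.8% of all measured genes, with medians of -0.17 and -0.01.

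The size of this second step moved with the scaling. With each array centred on its median, 20 of 34 (58.8%) read lower on day 9 against 36.9% of all measured genes, and the medians were -0.02 and 0.14. The ratio of 3' to 5' signal of Gapdh, another control, was also lowest on days 9 and 12, at 0.616 and 0.627, against 0.707 to 0.798 on the other days, and its part in the result was not tested.

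From day 9 to day 12 none of the 34 genes was past 2-fold in either direction, against 1.72% of all measured genes higher and 1.51% lower, and 25 (73.5%) read higher at any size against 48.9%. From day 12 to day 15 only Ero1l was past 2-fold higher, against 4.24%, and none was lower, against 3.92%. In this last step 21 genes (61.8%) read higher at any size, against 48.9% of all measured genes. That count moved with the scaling, to 19 (55.9%) against 51.1% with quantile normalization and 23 (67.6%) against 50.9% with median centring. The count from day 9 to day 12 was 22 (64.7%) under either scaling, against 49.4% with quantile normalization and 45.7% with median centring.

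Against the day 2 array, which these comparisons share, 3 genes were past 2-fold higher on day 9 (Pdia4, Sdf2l1 and Creb3l1) against 15.1% of all measured genes, and 3 lower (Ero1l, Ern1 and Atf6) against 10.3%. On day 12 the same 3 were higher, against 16.1%, and Ero1l, Ern1 and Creb3l2 were lower, against 11.4%. Read from day 6 in place of day 2, day 15 had 1 gene past 2-fold higher, Creb3l1 at 2.19-fold, against 8.42%. It had 3 past 2-fold lower against 6.16%, namely Ern1 at 3.63-fold, Creb3l2 at 2.65-fold and Dnajb11 at 2.01-fold. Pdia4, Sdf2l1 and Fkbp14 were within 2-fold in that comparison, at log2 differences of -0.52, -0.38 and 0.30.

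**Figure D3:**
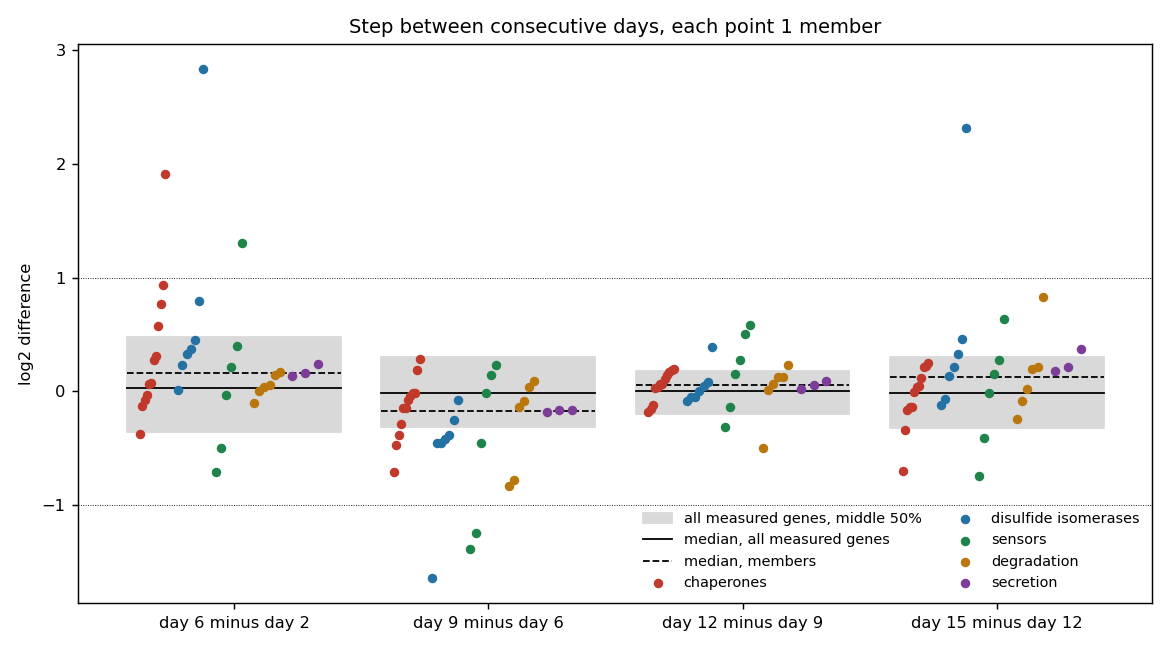
Log2 difference (y axis) between each pair of consecutive days (x axis), with 1 point per measured gene, coloured by role, 1 array per day. Grey bands are the middle 50% of all 11075 measured genes, and solid and dashed lines are the medians of all genes and of the 34. The 34 lie mostly above 0 on day 6 against day 2 and mostly below 0 on day 9 against day 6.

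The days of the highest and lowest value describe the same 5 arrays again and are no separate check on these steps. The 34 genes were highest most often on day 15 (13 genes, 38.2%, against 22.4% of all measured genes) and day 6 (11 genes, 32.4%, against 16.0%). They were highest on day 2 in 6 genes (17.6%, against 32.2%), on day 12 in 3 (8.82%, against 15.5%) and on day 9 in 1 (2.94%, against 14.0%). The lowest value fell on day 2 in 13 genes (38.2%, against 33.9%) and on day 6 in 2 (5.88%, against 12.9%). It fell on day 9 in 5 (14.7%, against 13.0%), and on days 12 and 15 in 7 each (20.6%, against 16.5% and 23.7%). With each array centred on its median, 6 genes in place of 11 were highest on day 6, against 10.5% of all measured genes, and 16 on day 15, against 26.4%.

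**Figure D4:**
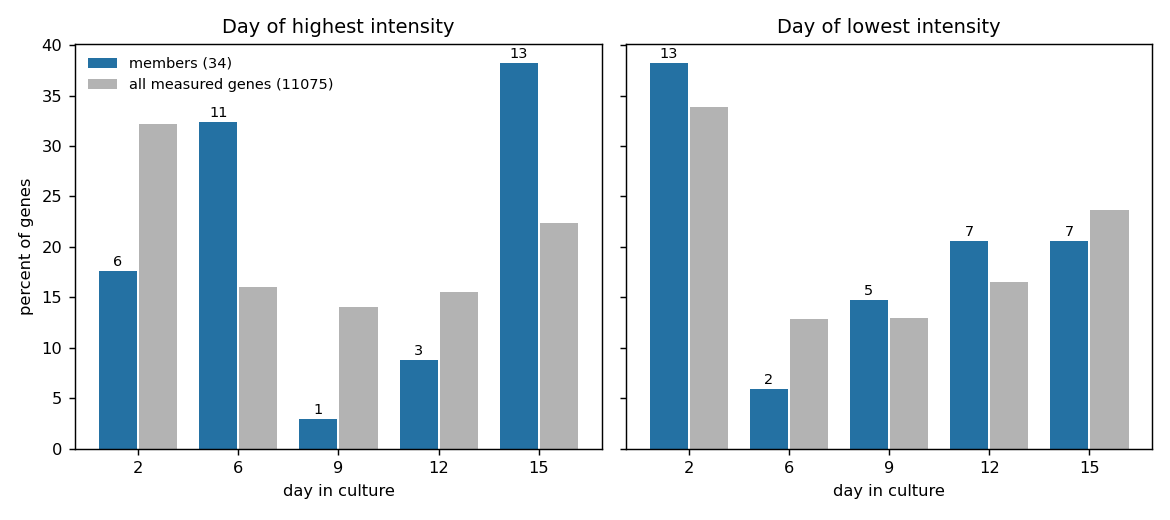
Percent of genes (y axis) whose highest (left) or lowest (right) intensity fell on each day in culture (x axis). Blue bars are the 34 genes, with the number of genes above each bar, and grey bars are all 11075 measured genes. Day 6 and day 15 hold 11 and 13 of the highest values.

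The only test run was a straight line of log2 intensity on day through the 5 arrays, fitted with limma over all 11075 genes. Curved courses were not tested. None of the 34 genes had an adjusted p under 0.05 (0.0542% of all measured genes rose by this test and 0% fell). At an unadjusted p under 0.05 there were 6 of 34, against 27.1% of all measured genes: Creb3l1, Ppib, Fkbp14 and Xbp1 with a positive slope (14.4% of all measured genes) and Ern1 and Creb3l2 with a negative one (12.7%). Creb3l1 had a slope of 0.169 per day (SE 0.028) and Ern1 one of -0.183 (SE 0.034), both with a limma adjusted p of 0.0734, the lowest among the 34 genes. Ppib, Xbp1 and Creb3l2 had limma adjusted p-values of 0.131, 0.141 and 0.145. Ero1l had a limma adjusted p of 0.989.

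The promoters of these genes are known for the endoplasmic reticulum stress element (ERSE), a pair of short motifs a fixed distance apart that ATF6 and XBP1 bind beside the factor NF-Y. RefSeq promoter windows of build GRCm38.p6, from 250 bases before to 50 after the transcription start, were searched on both strands for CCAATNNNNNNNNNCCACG. Windows were given for 29 of the 35 genes, all but Hyou1, Manf, Fkbp10, Atf6, Creb3l1 and Derl1. The ERSE letters were in 8 of the 29 (27.6%) against 0.119% of all 32851 windows. Here and for the motifs below, a gene counts when any of its windows matches. The background counts single windows, 32851 for 27025 genes, and includes those of the 29 genes. The 9 matches are shown because these letters are rare over all windows. They lay in 5 chaperone genes, 2 disulfide isomerase genes and 1 degradation gene. They are written 5′ to 3′ as the motif reads, with the CCAAT and CCACG parts in capitals.
Hspa5, chr2:34772025-34772043, farthest base of the match 65 bases before the start, on the strand of the gene: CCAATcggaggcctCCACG
Hsp90b1, chr10:86705533-86705551, farthest base of the match 107 bases before the start, on the opposite strand: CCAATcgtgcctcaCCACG
Hsp90b1, chr10:86705638-86705656, farthest base of the match 212 bases before the start, on the strand of the gene: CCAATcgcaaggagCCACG
Calr, chr8:84847075-84847093, farthest base of the match 162 bases before the start, on the opposite strand: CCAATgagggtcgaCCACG
Canx, chr11:50325800-50325818, farthest base of the match 145 bases before the start, on the strand of the gene: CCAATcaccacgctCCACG
Dnajc3, chr14:118937827-118937845, farthest base of the match 105 bases before the start, on the strand of the gene: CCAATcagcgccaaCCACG
Pdia6, chr12:17266491-17266509, farthest base of the match 98 bases before the start, on the strand of the gene: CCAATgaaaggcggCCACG
Creld2, chr15:88819520-88819538, farthest base of the match 126 bases before the start, on the opposite strand: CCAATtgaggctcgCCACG
Syvn1, chr19:6046532-6046550, farthest base of the match 44 bases before the start, on the strand of the gene: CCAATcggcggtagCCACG

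By the brightest probe set, none of these 8 genes was past 2-fold of day 2 on any later day, and 8 of all 34 genes were. The share was 41.7% over all measured genes and 34.3% over the brighter ones. The dimmest Dnajc3 probe set did pass 2-fold, at 3.30-fold above day 2 on day 12. By the brightest probe set, log2 differences of the 8 at day 15 ran from -0.54 for Syvn1 to 0.31 for Calr. The span over the 5 days ran from 1.19-fold for Canx to 1.73-fold for Dnajc3. Of the 8 genes past 2-fold on any later day, 6 had 1 or more windows, and none of these windows held the full ERSE letters. A shorter relative, ERSE-II, with the letters ATTGGNCCACG, was in 2 of the 29 (6.9%) against 0.0365% of all windows, with both parts in capitals here.
Dnajb11, chr16:22857852-22857862, first base of the match 8 bases after the start, on the strand of the gene: ATTGGcCCACG
Herpud1, chr8:94386377-94386387, farthest base of the match 52 bases before the start, on the strand of the gene: ATTGGgCCACG

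Dnajb11 and Herpud1 both read highest on day 6, and both lay within 2-fold of day 2 on every later day. The core of the unfolded protein response element, TGACGTG, was in the windows of Hspa5, Sec23a and Sec24d, 3 of 29 (10.3%) against 2.01% of all windows. The single parts are common: CCACG, which the ERSE and ERSE-II contain, was in 82.8% of the 29 and 32.8% of all windows, and CCAAT, also part of both, in 79.3% and 37.4%. A match says only that these letters are present in the window.

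For the genes past 2-fold at day 15 against day 2 that had a window, and for the bright genes Hspa5 and Ppib, the 150 bases before the start are printed for comparison on the strand of the gene. Capitals mark CCAAT and CCACG on either strand (the opposite strand reads ATTGG and CGTGG). Fkbp14 has 2 annotated starts.
Hspa5, chr2:34771940-34772089, plus strand: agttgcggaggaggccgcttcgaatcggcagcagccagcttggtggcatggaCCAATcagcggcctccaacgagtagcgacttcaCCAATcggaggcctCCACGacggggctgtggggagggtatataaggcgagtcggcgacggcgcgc
Ppib, chr9:66060019-66060168, plus strand: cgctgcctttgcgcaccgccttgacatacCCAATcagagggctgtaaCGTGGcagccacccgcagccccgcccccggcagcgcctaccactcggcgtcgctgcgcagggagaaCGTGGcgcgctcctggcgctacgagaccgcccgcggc
Sdf2l1, chr16:17132384-17132533, minus strand: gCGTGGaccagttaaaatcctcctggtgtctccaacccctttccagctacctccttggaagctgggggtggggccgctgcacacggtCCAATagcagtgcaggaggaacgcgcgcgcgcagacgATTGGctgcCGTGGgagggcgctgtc
Fkbp14, chr6:54597345-54597494, minus strand: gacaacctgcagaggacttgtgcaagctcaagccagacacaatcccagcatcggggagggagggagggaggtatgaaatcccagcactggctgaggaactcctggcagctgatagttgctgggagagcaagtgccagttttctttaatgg
Fkbp14, chr6:54593175-54593324, minus strand: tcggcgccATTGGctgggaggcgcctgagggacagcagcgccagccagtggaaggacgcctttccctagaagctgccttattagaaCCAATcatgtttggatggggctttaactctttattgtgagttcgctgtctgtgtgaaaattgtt
Pdia4, chr6:47813513-47813662, minus strand: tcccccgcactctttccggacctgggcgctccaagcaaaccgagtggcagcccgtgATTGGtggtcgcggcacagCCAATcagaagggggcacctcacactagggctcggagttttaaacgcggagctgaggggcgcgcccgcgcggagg
Ern1, chr11:106487797-106487946, minus strand: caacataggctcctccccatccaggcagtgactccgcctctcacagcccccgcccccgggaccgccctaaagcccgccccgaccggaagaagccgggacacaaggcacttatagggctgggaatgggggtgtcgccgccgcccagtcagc
Creb3l2, chr6:37442149-37442298, minus strand: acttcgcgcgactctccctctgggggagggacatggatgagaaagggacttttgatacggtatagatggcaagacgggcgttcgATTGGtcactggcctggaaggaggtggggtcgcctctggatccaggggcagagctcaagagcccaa

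In these stretches Hspa5 carried 2 CCAAT and 1 CCACG, of which 1 pair had the ERSE spacing, while Sdf2l1 carried 2 of each part outside that spacing. Ppib carried 1 CCAAT and 2 CCACG. Pdia4 carried 2 CCAAT and no CCACG, Creb3l2 1 CCAAT, and Ern1 neither part. The 2 starts of Fkbp14 differed, with 2 CCAAT before 1 of them and neither part before the other. These stretches are shorter than the windows searched, which did hold CCACG for Pdia4, Ern1 and Fkbp14.

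A wider list of 126 genes of the same pathway gave 119 measured genes, of which 11 were past 2-fold higher at day 15 than at day 2, 6 past 2-fold lower and 102 within, with a median log2 difference of 0.04. Over all measured genes 16.2% were higher and 11.6% lower, which is the background for each group that follows. Among 21 measured further folding factors 4 were higher and none lower, with Fkbp7, a further isomerase, at 594, 2837, 4277, 5992 and 6918, the largest difference of all (11.7-fold, limma adjusted p 0.0734). Among 19 degradation factors 3 were higher, led by the lectin Erlec1 (2.70-fold), and 1 lower, Nploc4 (2.19-fold). Among 20 genes listed under COPII coat and cargo 3 were higher, led by Tango2 (2.86-fold), and none lower. Tango2 was dim, at 100 on day 2 and 286 on day 15, and the far brighter Tmed3 came next (2.69-fold). Among 11 COPI coat genes 1 was higher, Copz2 (3.31-fold).

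Of 17 glycosylation and glycan-trimming genes 1 was past 2-fold lower, the glucosidase subunit Ganab (2.54-fold), and of 17 translocon and signal peptidase genes 1, the receptor subunit Srprb (2.00-fold). Of 14 further stress factors 3 were lower and none higher, led by the phosphatase subunit Ppp1r15a (2.84-fold), which reverses the action of PERK. None of the 119 genes had a limma adjusted p under 0.05, and 15 had a positive and 14 a negative slope at an unadjusted p under 0.05, against 14.4% and 12.7% of all measured genes.

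Markers of several cell types differed strongly over the same days. Of 13 chondrocyte markers 10 were past 2-fold lower at day 15 than at day 2 and 1 higher, and their summed intensity was 158688, 167439, 100993, 42367 and 52476 on the 5 days. The 6 measured osteoblast markers were all past 2-fold higher, with sums from 883 on day 2 to 79289 on day 15. Fibroblast markers were higher in 6 of 7, with sums from 6964 to 121405, and adipocyte markers in 5 of 6, with sums of 1962, 10679, 54230, 95123 and 52195. Of 3 measured hypertrophic chondrocyte markers 2 were higher and 1 lower, with sums from 2838 on day 6 to 17855 on day 15.

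The cells thus carried the chondrocyte markers of their label on day 2, and the sums of the osteoblast, fibroblast and adipocyte lists were higher on every later day. On day 6 Col1a1 alone gave 7029 of the osteoblast sum of 8219. Of the 6 osteoblast markers 2 were past 2-fold higher on that day and none past 2-fold lower. Alpl (126 to 69.8) and Phex (109 to 9.98) read lower on day 6 than on day 2. None of 6 endothelial markers passed the filter, with Pecam1 and Tek at the floor on all days. Myh3 and Myh8 of muscle, Tyrobp of macrophages and Cd79a and Cd79b of B cells were at the floor on all days too. Of the other markers of these last lists, 1 of 3 measured muscle markers was past 2-fold higher, 1 of 6 macrophage and osteoclast markers was higher and 1 lower, and neither of 2 plasma and B cell markers differed by 2-fold. The part of these markers in the values of Creb3l1, Creb3l2, Ern1, Fkbp14, Pdia4, Sdf2l1, Ero1l and Atf6 was not tested.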

How the data were processed

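Transcript levels were measured on 5 single-colour arrays of cultured rib chondrocytes, 1 for each of days 2, 6, 9, 12 and 15. The deposited values are linear probe-set intensities, and the submitters' processing notes name MAS5 as the tool without a version. With 2% trimmed from either end, every array had a mean of 500. The authors had thus scaled the arrays alike, which hides any shift shared by most transcripts. Of 45101 probe sets, 64 controls were left out, 34945 carried 1 symbol, 932 several and 9160 none in the platform annotation. Symbols were updated through a RefSeq table of GRCm38.p6.

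Intensities below the 40th percentile, 73.0, were raised to that floor before taking log2. The probe set of highest mean stood for its gene, which was kept where that mean reached 106, the 50th percentile over probe sets. Differences between days were counted at 2-fold with no test. The trend on day was fitted in R 4.3.3 by lmFit and eBayes of limma 3.58.1 (two-sided, 3 residual and 2.83 prior degrees of freedom, p-values adjusted by Benjamini-Hochberg over 11075 genes, threshold 0.05), and was checked on simulated data. Its p-values measure only scatter about a line between single arrays, which may be technical, and precision is limited throughout by the number of arrays. Counting, the motif search and figures used pandas 2.3.3, numpy 2.4.6 and matplotlib 3.10.9 in Python 3.11.15.

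The genes, the pathway lists and the marker lists were chosen with earlier results of these data known. Named with values on all 5 days are genes past 2-fold of day 2 on any later day, those with a probe set past 2-fold against another on the other side of 0, and the 2 brightest of each role, and a few others were added after their values were seen. Of each pathway list the highest and lowest gene were named when past 2-fold. Alternatives were quantile normalization, centring on the array median, the mean over all probe sets, a lower floor (20th percentile) or a higher one (60th), a pseudocount added without a floor, no filter, a filter at the 70th percentile, other days compared and the trend without each day in turn. Scanner files and detection calls were not used here.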

Additional observations from a re-analysis of the deposited data

How the results depend on the processing

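Of the 34 genes, the 4 past 2-fold higher at day 15 than at day 2 were 1 when day 15 was set against day 6 and 1 when days 12 and 15 were averaged against days 2 and 6. The 2 past 2-fold lower became 1, Ern1, with median centring or with a pseudocount in place of the floor. With the mean over all probe sets the count was also 1, but that gene was Atf6. Creb3l2 (-0.93) and Ern1 (-0.90, with a floored probe set in the mean) were then within 2-fold. At day 6 against day 2 the 0 past 2-fold lower were 1 with the mean over all probe sets. With the filter at the 70th percentile 1 gene passed the trend test, Creb3l1 at a limma adjusted p of 0.0485. Leaving out each day in turn gave 0 to 0. Of the genes within 2-fold at day 15 against day 2, Ero1l (1.00) and Pdia5 (1.13) reached it with median centring, which made 6 higher in place of 4. Atf6 reached it with quantile normalization (-1.04) and with the mean over all probe sets (-1.18). That centring moved the median of all genes by 0.14, and the median of the 34 genes from 0.13 to 0.26. On other days compared, the median ran from -0.11 (day 15 against day 6), below 0, to 0.05 (day 12 against day 2). Of genes highest on a given day, median centring gave 3 in place of 1 on day 9 and 5 in place of 3 on day 12; these counts and those of genes higher or lower at any size were chosen after seeing the data. No paired analysis was possible because each day has 1 array. Depth has no meaning for these arrays, and signal over background limits only the dim probe sets, since none of the 34 brightest probe sets reached the floor on any day.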

Other observations

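Several dimmer probe sets of the chaperones stood apart from the brightest probe set of their gene on some days. The dimmest of the 5 Dnajc3 probe sets read 168, 508, 504, 556 and 269, past 2-fold above day 2 on days 6, 9 and 12, while the brightest stayed within 1.70-fold of day 2. The dimmest of the 3 Hyou1 probe sets read 8.36 on day 2, below the floor, and 210 on day 6, at least 2.87-fold higher, while the brightest stayed within 1.21-fold. The dimmest of the 3 Canx probe sets read 719, 1112, 616, 648 and 471, a 2.36-fold difference between day 6 and day 15, while the brightest differed by 1.10-fold between those days. Of the 19 genes with several measured probe sets, 9 had probe sets on both sides of 0 at day 15 against day 2. The matching share over all measured genes was not computed, so whether this count is unusual is not known.

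Among the wider stress factors, Ddit3 (CHOP), a transcription factor downstream of PERK, read 2147, 2565, 806, 807 and 950. Days 2 and 6 stood above the 3 later days, as they did for Creb3l2, and day 15 was 2.26-fold below day 2. Its other measured probe set differed by only 1.08-fold between those days. Ddit3 was chosen for this description after its values were seen.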
